A study of Homo sapiens with 4 samples.

Results

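Solute carriers are membrane proteins that move sugars, amino acids, ions, nucleotides, organic anions and many other small molecules across the plasma membrane and the membranes of organelles. They are numbered by subfamily, and SLCO genes encode the organic anion transporters. Hepatocytes depend on them for the uptake of nutrients, drugs and bile acids and for exchange with mitochondria. HNF4A, a transcription factor of the nuclear receptor family, is abundant in hepatocytes and binds direct repeats of the nuclear receptor half-site, and genes of hepatic transport are among its known targets.

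The regions described here are all those for which the authors list a gene starting with SLC and a number, or with SLCO, as the closest gene, leaving out SLC2A2. They number 99 of the 5326 regions and belong to 80 genes, of which 63 have 1 region, 15 have 2 and 2 have 3. They were grouped into 7 transport classes by subfamily number. Of the 99 regions, 95 lie closest to transporter genes, 3 to SLC25A5-AS1, an antisense RNA gene, and 1 to the pseudogene SLC7A5P2, both kept because their names match. SLC7A5P2, SLC2A14 and SLC25A51 have near-identical copies elsewhere in the genome, so reads there may be shared between copies, which was not tested. The closest gene is the authors' entry and does not show that a region regulates that gene, and whether a region lies in an exon, an intron or a promoter was not analysed here.

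The study measured HNF4A occupancy by chromatin immunoprecipitation and sequencing in HCCLM3, an established human hepatocellular carcinoma line, with a nonspecific IgG antibody as the background. There were 4 libraries, 1 per group, which were HNF4A at high glucose, IgG at high glucose, HNF4A at low glucose and IgG at low glucose. The labels give all groups the same growth medium, a high glucose one, and state the glucose concentration of none. They also describe stable overexpression lines made by lentiviral transduction without naming the overexpressed gene or saying which libraries used such a line. A cell type cannot be checked against marker expression in these data.

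Over the 99 regions, HNF4A had 7 to 214 reads at high glucose with a median of 48, and 3 to 180 at low glucose with a median of 32. IgG had 2 to 193 reads at high glucose with a median of 22, and 1 to 134 at low glucose with a median of 16. The medians over all 5326 regions were 50, 35, 26 and 18 for HNF4A at high and low glucose and IgG at high and low glucose. The smallest value in the tables is 1 read, which could stand for none. Region lengths ran from 216 to 3971 bp in the family, the median being 1038 bp, near the 1030 bp of all regions. Ratios below are on the log2 scale, from reads divided by relative library size, with brackets holding the exact 95% counting interval. With 1 library per group there is no replicate check, and an interval covers counting error alone. How the authors chose the regions was not given in the sources used here, and a choice by reads in these libraries would build in part of any excess over IgG.

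The sequences of the regions themselves, whose coordinates are in hg19, were not analysed here. In their place, 4 promoters from RefSeq (GRCh38.p14, 250 bases before to 50 after the start site) are shown because they hold a motif searched for. The motifs were CAAAGTCC, a core of the sequence that HNF4A prefers, and AGGTCA, the nuclear receptor half-site, each on both strands. No occurrence of one overlapped the other in these promoters. Capitals mark the motif. The 4 were picked with the values of their regions in view, and SLC16A14 lies outside the rule for named genes.

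SLCO2B1 (chr11:75159582-75159881, plus strand), an uptake transporter of organic anions: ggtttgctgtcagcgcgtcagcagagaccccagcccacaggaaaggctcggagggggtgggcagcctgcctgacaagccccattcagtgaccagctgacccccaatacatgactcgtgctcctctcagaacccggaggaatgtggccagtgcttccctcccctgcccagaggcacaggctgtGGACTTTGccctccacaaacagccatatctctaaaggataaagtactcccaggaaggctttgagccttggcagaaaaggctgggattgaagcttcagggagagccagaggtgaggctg

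SLC16A14 (chr2:230068875-230069174, minus strand), a member of the monocarboxylate family: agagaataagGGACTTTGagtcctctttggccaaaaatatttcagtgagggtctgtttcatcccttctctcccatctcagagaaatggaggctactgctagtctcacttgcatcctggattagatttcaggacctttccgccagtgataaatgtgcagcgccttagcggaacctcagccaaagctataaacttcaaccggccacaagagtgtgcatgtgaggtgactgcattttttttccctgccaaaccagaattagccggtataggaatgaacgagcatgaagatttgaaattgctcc

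SLC27A5 (chr19:58511943-58512242, minus strand), the liver enzyme and carrier that activates bile acids and fatty acids: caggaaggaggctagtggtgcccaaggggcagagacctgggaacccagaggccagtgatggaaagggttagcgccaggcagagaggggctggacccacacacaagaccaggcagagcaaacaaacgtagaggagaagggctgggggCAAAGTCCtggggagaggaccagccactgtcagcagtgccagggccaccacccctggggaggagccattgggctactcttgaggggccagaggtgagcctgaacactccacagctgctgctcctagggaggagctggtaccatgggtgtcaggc

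SLC22A7 (chr6:43298010-43298309, plus strand), an organic anion transporter of the liver, which holds the half-site and is shown because its region was among the highest over IgG: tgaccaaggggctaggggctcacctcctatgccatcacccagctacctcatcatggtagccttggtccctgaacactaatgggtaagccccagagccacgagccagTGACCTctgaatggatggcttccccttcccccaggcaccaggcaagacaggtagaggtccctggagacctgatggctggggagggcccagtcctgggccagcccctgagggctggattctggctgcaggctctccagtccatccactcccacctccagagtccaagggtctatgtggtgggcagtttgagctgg

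Of the 80 genes, 63 had a promoter in the table, 1 of them, SLC22A18, under its newer symbol. CAAAGTCC was found in 3 of the 63 (4.76%), against 1.47% of the 27305 gene symbols in the table, and AGGTCA in 7 (11.1%), against 16.5%. The first 3 promoters above hold CAAAGTCC, 68 bases before the start site on the opposite strand in SLCO2B1, 240 bases before it on the opposite strand in SLC16A14 and 104 bases before it on the same strand in SLC27A5. The regions of the 3 genes did not stand alike. SLCO2B1 and SLC16A14 were above IgG at both glucose levels, at 1.58 (0.82 to 2.41) and 2.94 (0.87 to 6.10) at high glucose. SLC27A5 had 39 HNF4A and 35 IgG reads at high glucose and 27 and 25 at low glucose, ratios of 0.01 (-0.69 to 0.71) and 0.08 (-0.76 to 0.93). Whether these regions cover the promoters shown was not tested, because the builds differ.

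HNF4A was above IgG in 89 of the 99 regions at high and 94 at low glucose, against 84.2% and 91.5% of all regions. The median log2 ratio was 1.004 at high glucose, against 0.79 over all regions, and 1.09 at low glucose, against 0.94. Centred on those medians of all regions, 51 of the 99 were higher at high glucose and 53 at low glucose, so the share of regions above IgG goes from 89.9% to 51.5% and from 94.9% to 53.5%. HNF4A exceeded IgG 2-fold or more in 50 regions at high glucose, or 50.5%, where 41.6% of all regions passed it. At low glucose it did so in 53 regions, or 53.5%, against 46.8%. The counting interval lay above 0 in 58 regions at high glucose, against 55.2% of all regions, and in 65 at low glucose, against 56.2%. In the authors' deposited tables no solute carrier region passed a false discovery rate (FDR) of 0.05, and the lowest FDR was 0.865 at high and 0.820 at low glucose. An unadjusted p under 0.05 with HNF4A above IgG stood beside 3 of the 99 in the authors' deposited table of the high glucose pair, where 4.96% of all regions had one. In the authors' deposited table of the low glucose pair it stood beside 1 of the 99, where 3.04% had one. With 1 region per gene, the one with the most reads, the medians were 0.78 and 0.90, no longer above those of all regions. All regions were not cut to 1 per gene, so the 2 sides are unlike. The reads used for the pick include IgG, and the part of the pick in the lower medians was not tested.

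Excesses of at least 2-fold at both glucose levels were found in 37 of the 99 regions, against 31.4% of all regions. At high glucose alone there were 13, at low glucose alone 16, and at neither 33. Over all 5326 regions these counts were 548, 824 and 2284. The 37 were 74.0% of the high glucose list and 69.8% of the low glucose list, against 75.3% and 67.0% over all regions. The log2 ratios of high and low glucose come from separate libraries. As a description across the 99 regions, Pearson's r between them was 0.635 and Spearman's rho 0.585.

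**Figure D1:**
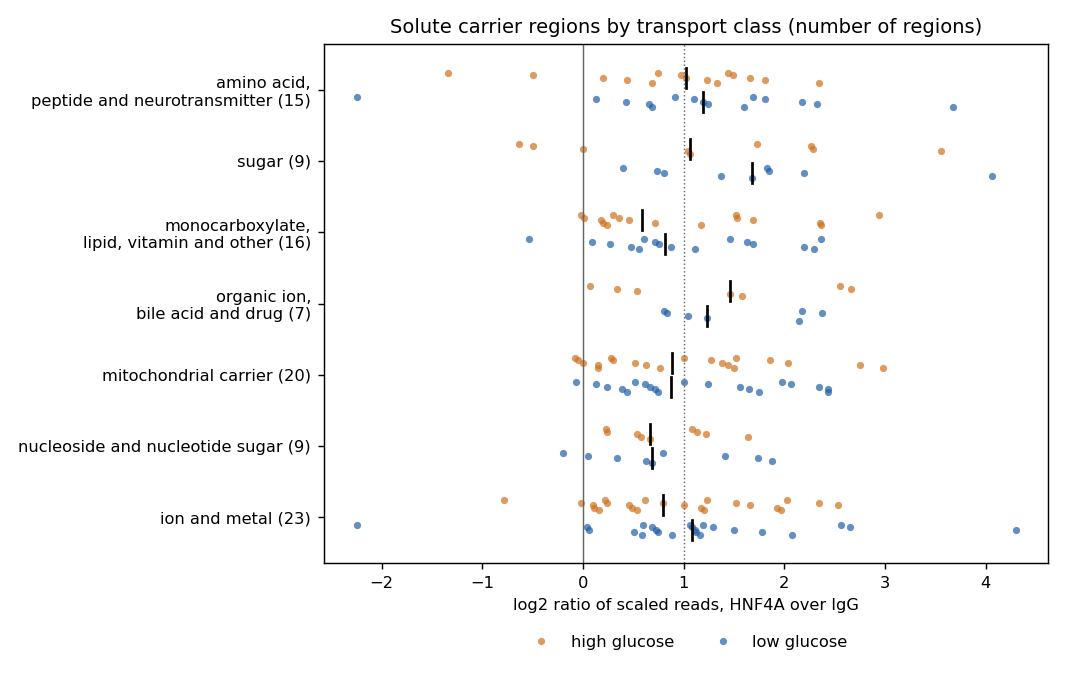
Log2 ratio of scaled reads, HNF4A over IgG (horizontal axis), for the 99 solute carrier regions by transport class, at high glucose (orange) and low glucose (blue), with 1 point per region and the class median as a black bar. The organic ion class has the highest median at high glucose, 1.46 over 7 regions, and the sugar class at low glucose, 1.67 over 9, and the classes overlap widely.

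Organic ion, bile acid and drug transporters, which clear drugs and metabolites from blood, held 7 regions, all above IgG at both glucose levels. Their medians were 1.46 at high and 1.23 at low glucose, with at least a 2-fold excess in 4 and 5 of the 7. For comparison with this and each class below, 84.2% and 91.5% of all regions were above IgG at high and low glucose. At least a 2-fold excess was seen in 41.6% and 46.8% of all regions, and an interval above 0 in 55.2% and 56.2%. The region of SLC22A7 (hg19 chromosome 6, 43245307 to 43247016) had 78 HNF4A reads over 12 of IgG at high glucose and 54 and 12 at low glucose. HNF4A was high against the same IgG level at both glucose levels, at log2 ratios of 2.55 (1.67 to 3.57) and 2.14 (1.22 to 3.18). Its unadjusted p in the authors' deposited high glucose table was 0.0255 and its FDR 0.865. The region of SLCO2B1 (hg19 chromosome 11, 74879252 to 74880358) showed 63 over 19 reads at high glucose and 37 and 7 at low glucose, a low glucose ratio of 2.38 (1.19 to 3.79). SLCO4A1, which also carries organic anions including thyroid hormone, held 76 and 25 reads at high and 40 and 19 at low glucose, ratios of 1.46 (0.79 to 2.17) and 1.05 (0.23 to 1.92). SLC22A18, an imprinted gene placed in this class by its older symbol, held 130 and 93 reads at high and 79 and 33 at low glucose. Its excess was clear of counting error at low glucose, at 1.23 (0.63 to 1.87), and not at high glucose, at 0.34 (-0.06 to 0.74).

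Sugar transporters held 9 regions of 7 genes, 7 above IgG at high glucose and all 9 at low glucose, with medians of 1.06 and 1.67. The interval lay above 0 in 6 of the 9 at high and in 8 at low glucose. SLC2A1, which encodes the glucose carrier of most proliferating cells, had 2 regions on hg19 chromosome 1. Its first (43445602 to 43446524) had 43 HNF4A reads over 8 of IgG at high glucose and 26 and 8 at low glucose, ratios of 2.28 (1.17 to 3.58) and 1.67 (0.49 to 3.03). Its second (43464819 to 43465482) had 26 over 2 at high glucose and 17 and a listed 1 at low glucose, ratios of 3.55 (1.56 to 6.67) and 4.06 (1.39 to 9.45). Those wide intervals rest on 1 or 2 IgG reads. SLC5A11, a sodium-coupled carrier of inositol, held 77 and 21 reads at high and 42 and 9 at low glucose, ratios of 1.73 (1.02 to 2.50) and 2.20 (1.14 to 3.42). SLC50A1, a sugar efflux gene, had the longest region of the family, at 3971 bp, and the most reads over the 4 libraries together, 214 HNF4A and 193 IgG at high glucose and 180 and 134 at low glucose. Its ratios were 0.00 (-0.28 to 0.29) and 0.40 (0.07 to 0.73), so the region with most reads was close to its background. SLC45A4, a gene of the proton-coupled sugar family, stood at 1.06 (0.61 to 1.53) and 0.81 (0.33 to 1.29) in its region with more reads.

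Mitochondrial carriers, the SLC25 subfamily of the inner mitochondrial membrane, held 20 regions, 17 above IgG at high and 19 at low glucose, with medians of 0.88 at both. The 20 include the 3 regions of SLC25A5-AS1, which is no carrier gene. At least a 2-fold excess was seen in 10 of the 20 at each glucose level. SLC25A42, the coenzyme A carrier, lay closest to a region on hg19 chromosome 19 (19207611 to 19208486) that had 67 reads from HNF4A and 9 from IgG at high glucose, then 31 and 6 at low glucose. Its ratios were 2.75 (1.74 to 3.94) and 2.34 (1.06 to 3.89). The authors' deposited high glucose table gave it an unadjusted p of 0.0270 and an FDR of 0.865. SLC25A3, the phosphate carrier that supplies ATP synthesis, had 86 and 19 reads at high and 48 and 14 at low glucose in its first region, ratios of 2.03 (1.30 to 2.83) and 1.75 (0.87 to 2.73). SLC25A13, the aspartate and glutamate exchanger of the urea cycle and the malate shuttle, held 138 and 87 reads at high and 103 and 66 at low glucose. Its ratios of 0.52 (0.12 to 0.92) and 0.62 (0.16 to 1.08) lay below the medians of all regions. At SLC25A44, a carrier of branched-chain amino acids, HNF4A and IgG could not be told apart within counting error, with 110 and 105 reads at high and 71 and 73 at low glucose. SLC25A32, a folate carrier, also had intervals that included 0, at 0.15 (-0.49 to 0.79) and 0.13 (-0.57 to 0.83).

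Amino acid, peptide and neurotransmitter transporters held 15 regions of 11 genes, with medians of 1.02 at high and 1.20 at low glucose and 13 and 14 regions above IgG. SLC3A2, the heavy chain shared by several amino acid exchangers, held 62 HNF4A and 20 IgG reads at high glucose and 37 and 12 at low glucose. HNF4A exceeded IgG in both pairs of libraries, at 1.49 (0.74 to 2.29) and 1.60 (0.63 to 2.67), with a difference of -0.11 (-1.44 to 1.17). SLC7A7, a light chain that pairs with it to export cationic amino acids, and SLC3A1, the heavy chain of the cystine exchanger, each had 2 regions and were not reached by the rule for named genes. They are named after their values were seen, at 1.81 to 2.35 and 0.75 to 1.44 at high glucose. SLC17A5, the sialic acid exporter of lysosomes, held 57 and 22 reads at high and 32 and 20 at low glucose, ratios of 1.23 (0.49 to 2.01) and 0.65 (-0.20 to 1.54). The lowest ratio of the family at high glucose belonged to SLC32A1, the vesicular carrier of inhibitory neurotransmitters. Its 338 bp region held 7 and 16 reads at high glucose and 3 and 14 at low glucose, ratios of -1.34 (-2.86 to 0.02) and -2.25 (-4.69 to -0.41). SLC30A7, a zinc carrier gene with a 328 bp region, was the other one whose interval lay below 0 at low glucose, also with 3 and 14 reads. Both genes were named after their values were seen.

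Ion and metal transporters made up the largest class, with 23 regions of 20 genes and medians of 0.79 at high and 1.09 at low glucose. At least a 2-fold excess was seen in 11 regions at high and 13 at low glucose. SLC30A10, which exports manganese from hepatocytes, held 32 HNF4A and 5 IgG reads at high glucose and 20 and a listed 1 at low glucose, ratios of 2.53 (1.16 to 4.25) and 4.30 (1.65 to 9.67). SLC30A1, the zinc exporter of the plasma membrane, held 109 and 42 reads at high and 52 and 36 at low glucose, ratios of 1.23 (0.70 to 1.78) and 0.50 (-0.14 to 1.16). SLC40A1, ferroportin, the sole known cellular iron exporter, held 66 and 39 reads at high and 36 and 22 at low glucose. Its interval lay just above 0 at high glucose, at 0.61 (0.02 to 1.22), and included 0 at low glucose, at 0.68 (-0.12 to 1.52). SLC26A5, which encodes the motor protein of outer hair cells, held 84 and 24 reads at high and 43 and 28 at low glucose in its second region, ratios of 1.66 (0.99 to 2.38) and 0.59 (-0.13 to 1.33).

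Monocarboxylate, lipid, vitamin and related transporters held 16 regions, with medians of 0.59 and 0.81, below those of all regions. SLC16A1 and SLC16A3 encode the main lactate carriers of tumour cells. SLC16A1 held 48 HNF4A and 44 IgG reads at high and 27 and 19 at low glucose, ratios of -0.02 (-0.64 to 0.60) and 0.48 (-0.42 to 1.41). SLC16A3 held 140 and 77 reads at high and 100 and 67 at low glucose, ratios of 0.72 (0.30 to 1.14) and 0.55 (0.09 to 1.02). Of the fatty acid carriers of the SLC27 subfamily, 1 of 4 regions reached a 2-fold excess at high glucose and none at low glucose. That one, the first of SLC27A3, held 118 and 33 reads at high and 80 and 48 at low glucose, ratios of 1.69 (1.12 to 2.30) and 0.71 (0.18 to 1.26). Carriers of nucleosides and nucleotide sugars, which supply nucleotide salvage and glycosylation, held 9 regions with medians of 0.66 and 0.68. SLC35D1, a carrier of nucleotide sugars into the endoplasmic reticulum, led them with 69 and 20 reads at high and 30 and 8 at low glucose, ratios of 1.64 (0.90 to 2.44) and 1.88 (0.72 to 3.22).

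**Figure D2:**
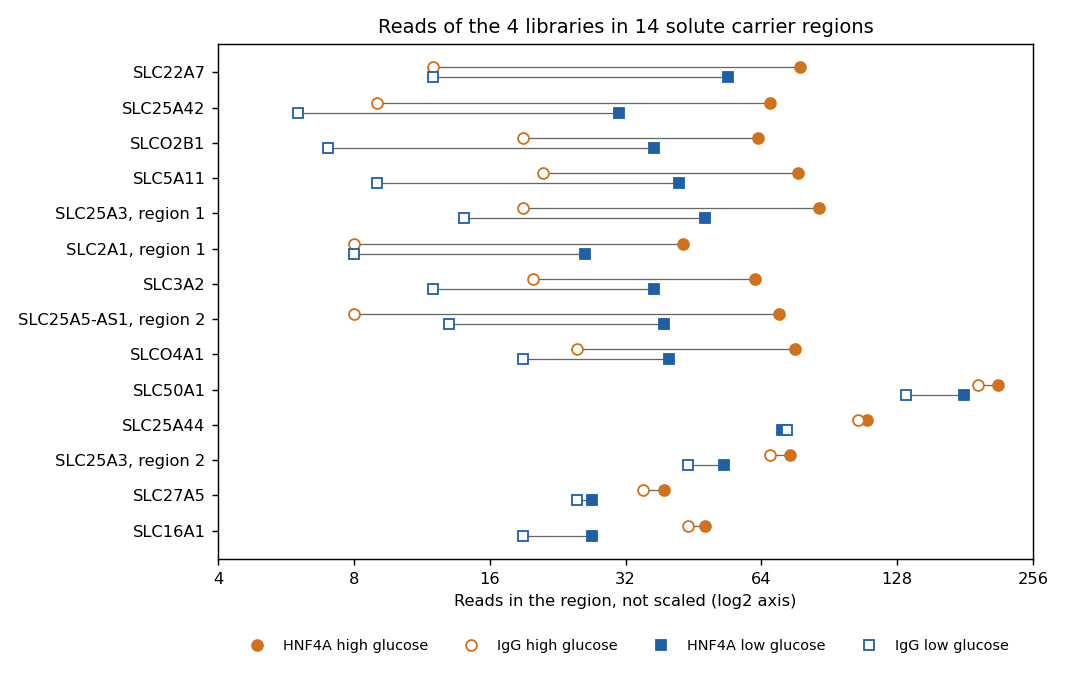
Reads in 14 solute carrier regions in each of the 4 libraries, not scaled by library size, on a log2 axis, with HNF4A as filled and IgG as open symbols, high glucose as orange circles and low glucose as blue squares, and a line joining HNF4A to the IgG of the same glucose level. The upper 9 regions have clear gaps between HNF4A and IgG, such as 78 and 12 reads for SLC22A7 at high glucose. The lower 5 have smaller gaps, such as 110 and 105 for SLC25A44. The 14 were picked and ordered by hand, so this contrast was set by the choice of regions.

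Of the 26 liver transporter genes in the list used for naming, 10 had a region. The genes without one, such as SLC10A1 and SLCO1B1, were not analysed here. ABC transporters, which pump substrates with ATP, were taken as a second family and held 14 regions of 12 genes, all above IgG at both glucose levels. Of all regions, 84.2% were above IgG at high and 91.5% at low glucose. The ABC medians were 1.48 and 1.57, against 0.79 and 0.94 over all regions. At least a 2-fold excess was seen in 11 and 12 of the 14, against 41.6% and 46.8% of all regions. The list of transporter partner genes had regions for 1 gene, EMB, an ancillary protein of lactate carriers, 2 in number, 1 above and 1 below IgG at each glucose level.

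Regions that share a closest gene did not always have the same HNF4A over IgG ratio. Among 17 such genes, 21 pairs of regions lay 7862 to 271400 bp apart. In 8 pairs at high and 3 at low glucose the interval for the difference of the 2 log2 ratios excluded 0. Such pairs were not formed over the whole series, so these counts have no share of all regions beside them. SLC25A3 showed it at both glucose levels. Its second region held 74 HNF4A and 67 IgG reads at high glucose and 53 and 44 at low glucose, against the 86 and 19 and the 48 and 14 of its first. The regions were thus closer in HNF4A than in IgG reads. The ratio of the first region was higher by 2.03 (1.13 to 2.98) at high and by 1.51 (0.40 to 2.66) at low glucose. SLC25A5-AS1 lies next to SLC25A5, an adenine nucleotide carrier gene, and its 3 regions held 83, 70 and 30 HNF4A reads against 61, 8 and 10 IgG reads at high glucose. The ratio of the second was higher than that of the first by 2.68 (1.48 to 4.05) at high glucose, and by 0.32 (-0.88 to 1.56) at low glucose. The authors' deposited high glucose table gave that second region an unadjusted p of 0.0168 and an FDR of 0.865.

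SLC43A2, a carrier of large neutral amino acids, also had 3 regions, with 54, 39 and 55 HNF4A reads and 24, 18 and 70 IgG reads at high glucose. At low glucose they held 51, 28 and 48 HNF4A reads and 10, 12 and 25 IgG reads. The third was the one with most IgG at either level, and the ratio of the first exceeded that of the third by 1.52 (0.60 to 2.45) at high and by 1.41 (0.12 to 2.77) at low glucose. The first region of SLC43A2 was the only solute carrier region with an unadjusted p below 0.05 at low glucose in the authors' deposited table, 0.0453 and an FDR of 0.820. Both regions of SLC2A1 stood above IgG, and their difference was 1.27 (-1.21 to 4.64) at high glucose, too wide to order them.

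**Figure D3:**
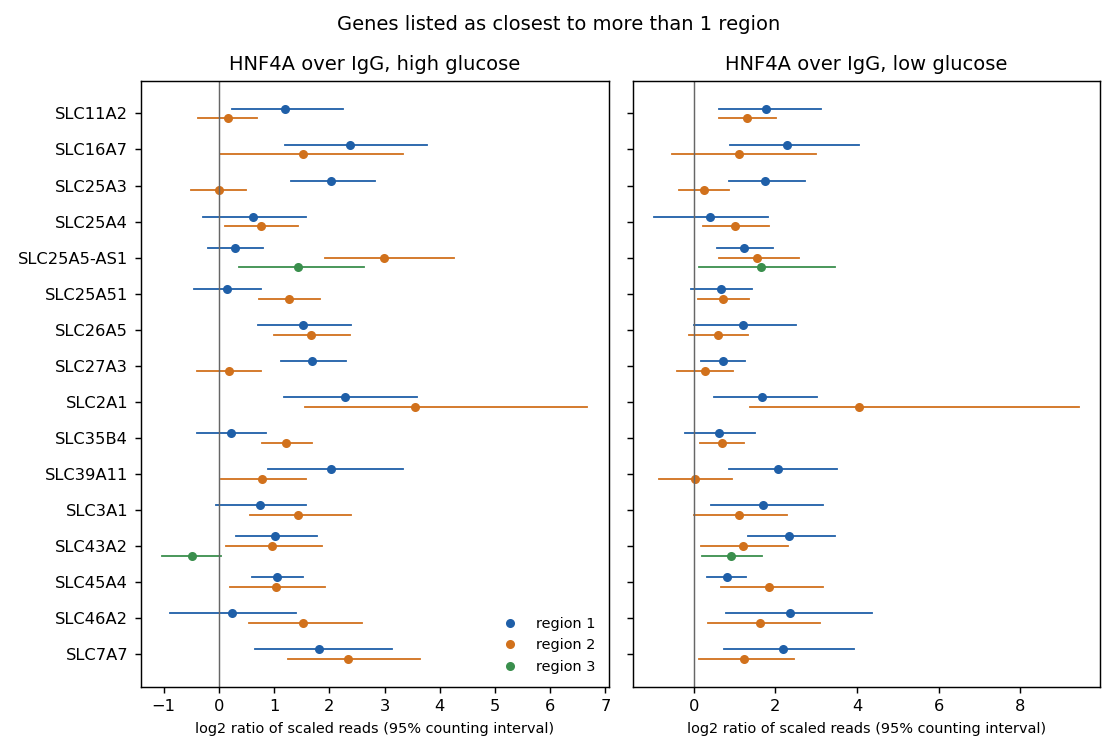
Log2 ratio of scaled reads, HNF4A over IgG, at high glucose (left) and low glucose (right), for each region of 16 of the 17 genes with more than 1, numbered along the chromosome, with bars for the exact 95% counting interval. The 2 regions of SLC25A3 stand apart in both panels, by 2.03 and 1.51, while those of most genes overlap.

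Length differed between regions with high and low ratios. The 48 solute carrier regions at or below the median length of all regions had median log2 ratios of 1.46 at high and 1.66 at low glucose, and the 51 longer ones 0.58 and 0.68. The same split over all regions gave 1.09 and 1.21 against 0.62 and 0.77. Across the 99 regions length and ratio had Spearman correlations of -0.256 at high and -0.429 at low glucose, as a description. The part of length in the ratios was not tested.

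High glucose gave more HNF4A reads than low glucose in 90 of the 99 regions, against 81.8% of all regions. The median log2 ratio was 0.43, against 0.36 over all regions. Centred on the median of all regions, 57 of the 99 were higher, so that share goes from 90.9% to 57.6%. At least 2-fold higher reads were seen in 8 regions, or 8.08%, against 6.78% of all regions, and no region was 2-fold lower. The interval lay above 0 in 28 regions, against 25.8% of all regions, and below 0 in none. None passed the FDR in the authors' deposited table, where the lowest FDR among them was 0.914. In this direction 4 of the 99 had unadjusted p-values there below 0.05, against 4.39% of all regions. Taken over the family, IgG moved the same way, but the 2 ratios did not rise together from region to region. As a description, Pearson's r between the HNF4A and IgG ratios across the 99 regions was -0.221 and Spearman's rho -0.194. Over all regions these were 0.0095 and 0.020. IgG was higher at high glucose in 80 of the 99, against 77.9% of all regions, with a median of 0.57. It was at least 2-fold higher in 23 regions, against 19.4% of all regions, and its interval lay above 0 in 28, against 26.2%. Centred on the median of all regions, IgG was higher in 56 of the 99. The part of the IgG level in the HNF4A difference was not tested.

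The region of SLC29A3, the nucleoside carrier of lysosomes, had the highest HNF4A ratio of high over low glucose in the family. It lay on hg19 chromosome 10 (73099460 to 73100492). HNF4A reads there numbered 54 at high and 16 at low glucose, and IgG reads 23 and 18. The HNF4A over IgG ratio of this region differed by 1.28 (-0.04 to 2.60) between the glucose levels, an interval that included 0. HNF4A stood at 1.62 (0.79 to 2.52) and IgG at 0.34 (-0.62 to 1.31), and the authors' deposited table gave HNF4A an unadjusted p of 0.00603 and an FDR of 0.914. The others under 0.05 in that table were SLC16A11, a monocarboxylate family gene, SLC6A4, the serotonin transporter gene, and the first region of SLC26A5. These 3 were named after their values were seen. For SLC16A11 the HNF4A reads were 40 at high glucose but 14 at low, with 16 and 20 from IgG, and for SLC6A4 49 and 20, with 14 and 18. In both, IgG had fewer reads at high than at low glucose while HNF4A had more. In the first region of SLC26A5 both had more, with 54 and 21 HNF4A and 17 and 9 IgG reads, and its ratio differed by 0.33 (-1.25 to 1.82). The rule for named genes, which asks for more reads, put SLC35D1 at 1.07 (0.43 to 1.74), SLC25A42 at 0.98 (0.34 to 1.64), SLC30A1 at 0.93 (0.44 to 1.44), the second region of SLC26A5 at 0.83 (0.28 to 1.40) and the second of SLC35B4 at 0.82 (0.42 to 1.23) highest. For SLC35D1 IgG was also higher at high glucose, at 1.31 (0.06 to 2.70). Both regions of SLC2A1 had intervals that included 0, at 0.59 (-0.15 to 1.35) and 0.48 (-0.46 to 1.45). No solute carrier region was lower at high glucose beyond counting error. SLC8B1, the sodium and calcium exchanger of mitochondria, was lowest by the rule, at -0.20 (-0.83 to 0.43). Without the limit on reads the lowest was SLC4A7, a bicarbonate carrier gene, at -0.50 (-1.23 to 0.21). SLC4A7 was named after its values were seen.

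**Figure D4:**
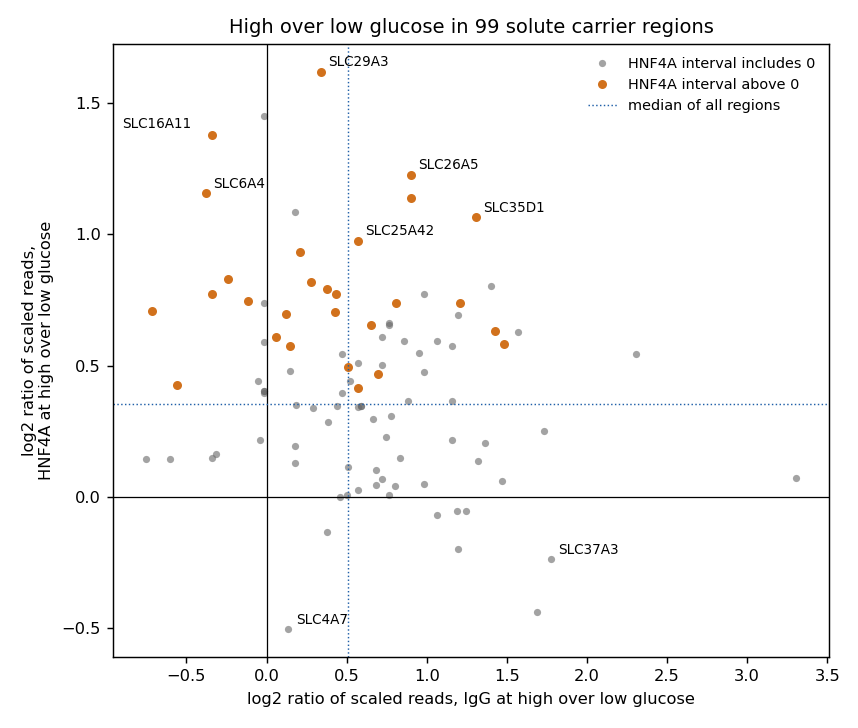
Log2 ratio of scaled reads at high over low glucose for IgG (horizontal axis) and HNF4A (vertical axis) in the 99 solute carrier regions, with orange points where the HNF4A counting interval lies above 0 and dotted lines at the medians of all regions, 0.51 for IgG and 0.36 for HNF4A. Most points lie above 0 on both axes, and SLC29A3 is highest for HNF4A at 1.62.

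The HNF4A over IgG ratio itself was greater at high glucose in 38 of the 99 regions and smaller in 61. It was greater in 41.7% of all regions. The median difference was -0.15, the same as over all regions. Without scaling by library size 49 of the 99 were higher, so that share goes from 38.4% to 49.5%. Over all regions it goes from 41.7% to 48.3%. The ratio was at least 2-fold higher at high glucose in 7 regions, against 8.49% of all regions, and at least 2-fold lower in 12, against 11.9%. Its exact interval lay above 0 in 4 regions, against 4.0% of all regions, and below 0 in 11, against 7.42%. The 4 were SLC16A11 at 1.72 (0.29 to 3.15), SLC6A4 at 1.54 (0.15 to 2.92), the second region of SLC26A5 at 1.07 (0.04 to 2.09) and the first of SLC27A3 at 0.98 (0.18 to 1.79).

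Of the 11 with a lower ratio at high glucose, 10 had an IgG interval above 0 between the glucose levels, and 10 had an HNF4A interval that included 0. Over the 395 such regions of the whole series these shares were 90.1% and 89.6%, near those of the 11, and the ratio that chose them contains the IgG reads. SLC37A3, of the sugar phosphate carrier family, had the largest such difference whose libraries all held over 10 reads. It held 27 HNF4A and 38 IgG reads at high glucose and 29 and 11 at low glucose, ratios of -0.64 (-1.41 to 0.11) and 1.37 (0.33 to 2.52) and a difference of -2.01 (-3.39 to -0.68). The HNF4A reads of this region differed by -0.24 (-1.05 to 0.57) between the glucose levels, within counting error, and its IgG reads by 1.77 (0.78 to 2.89). SLC44A1, a choline carrier, held 47 and 37 reads at high and 36 and 11 at low glucose, a difference of -1.49 (-2.79 to -0.25). The third region of SLC43A2 differed by -1.41 (-2.34 to -0.49), SLC8B1 by -1.39 (-2.53 to -0.28), SLC26A11, an anion exchanger, by -1.18 (-2.18 to -0.21), the second region of SLC11A2, the intestinal and endosomal iron carrier, by -1.14 (-2.03 to -0.25) and SLC22A18 by -0.90 (-1.65 to -0.16). The region of the 11 whose HNF4A interval lay above 0 was that of SLC22A18, at 0.58 (0.17 to 1.01). The exact conditional test of the 4 reads, 2-sided and Benjamini-Hochberg adjusted over all 5326 regions, called none of the 99, the lowest adjusted p being 0.0695 for SLC37A3. It called 69 of all 5326 regions. Unadjusted p-values below 0.05 were found for 15 of the 99, near the 13% of all regions, and the test compares libraries, not conditions.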

How the data were processed

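HNF4A and IgG libraries of HCCLM3 cells at high and low glucose, 1 per group, were compared in 5326 regions. Per the submitters' processing notes, bcl2fastq, Bowtie 1.1.2, MACS, DiffBind and HOMER were used on build hg19. How each was set, and how regions were chosen, was not given in the sources used here. As deposited by the authors, 3 tables hold log2 levels, log2 folds, p-values and FDR per region. Per the file headers each row also names the closest gene. In each of the 3, 33 regions have no gene name, and 20 regions are named differently between tables, none a solute carrier.

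Each log2 level, taken out of the log, equalled a whole number of steps (tolerance 0.01, 100% of values; 1 step for each library and table), which gave reads and relative sizes of 1.10 (HNF4A, high glucose), 0.993 (IgG, high), 1 (HNF4A, low) and 0.982 (IgG, low). Sequencing totals were not analysed here. HNF4A reads at high glucose were the same in 5326 of 5326 regions in both tables that hold them, which settled the sides. Ratios carry exact 95% Clopper-Pearson intervals, and differences of ratios exact conditional ones, computed with scipy 1.17.1 and tested on simulated reads. Coordinates are counted from 1. The labels name no molecular identifiers, so PCR duplicates may count as separate reads, and intervals and tests cover counting error only.

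The members, the gene lists and the rule for named genes were chosen with earlier results of these data known. Added to these were RefSeq promoters (GRCh38.p14), matched by current or older symbol for 63 of 80 genes. The naming rule takes, per comparison, the 5 highest and 5 lowest regions with summed reads at or above the median of all regions, up to 4 per class, genes with 3 or more regions, and 26 liver transporter genes. Not every gene the rule takes is reported, and 1 gene with more than 1 region is not drawn or named here. No paired test was made.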

Additional observations from a re-analysis of the deposited data

How the results depend on the processing

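No paired analysis was possible because each group has 1 library. The 5 counts of regions past a 2-fold difference stayed within 1.5 times their values without scaling by library size, with 1 read added, with at least 20 reads, with 1 region per gene and without antisense and pseudogene regions. Centring and a stricter fold moved them. Centred on the median of all regions, the count above IgG went from 50 to 19 at high glucose and from 53 to 20 at low glucose, HNF4A at high over low glucose from 8 to 3 and IgG from 23 to 6. At a fold of 3 these counts were 24, 33, 1 and 5, and the count of HNF4A over IgG ratios lower at high glucose, 12 at a fold of 2, was 4. Centring subtracts the shift of all regions and a fold of 3 is a stricter limit, which lowers these counts by construction; the count of lower ratios was 11 when centred. Leaving out the scaling moved the median of all regions by 0.15 over IgG at high glucose and by 0.14 for HNF4A between glucose levels. Of 690 values of named regions recomputed without scaling, centred or with 1 read added, 613 stayed within their interval. The sign changed in 68 of 230 values on centring, in 12 without scaling and in 0 with 1 read added. Of these, 15 had an interval clear of 0 before, all on centring. At high glucose over IgG these 15 included SLC16A5 at -0.33, SLC16A3 at -0.0737, SLC40A1 at -0.18 and SLC25A13 at -0.27. At low glucose they included the first region of SLC27A3 at -0.23, SLC50A1 at -0.54, the third region of SLC43A2 at -0.0237, SLC16A5 at -0.33 and SLC16A3 at -0.39. Also among them were SLC25A13 at -0.32, the second region of SLC35B4 at -0.26 and the first of SLC45A4 at -0.13. The second region of SLC25A51 at -0.22 and SLC27A4 at -0.0667 were too. IgG at SLC25A44 at high over low glucose became -0.00143. A region with few IgG reads has a wide interval, and replicate error is unknown throughout.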

Other observations

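Solute carrier regions were unevenly spread over the chromosomes. Chromosome 17 held 15 of the 99, or 15.2%, against 6.72% of all 5326 regions, and they included 3 of SLC43A2 and 2 of SLC39A11. Chromosome 9 held 8, or 8.08%, against 4.81%, and the X chromosome 6, or 6.06%, against 2.63%, 3 of these at SLC25A5-AS1. Chromosome 3 held 2, or 2.02%, against 5.78%. These shares were not compared with the number of solute carrier genes on each chromosome.

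The 7 regions of the SLC16 subfamily differed widely among themselves over IgG. Their log2 ratios at high glucose ran from -0.02 for SLC16A1 to 2.94 for SLC16A14, with a median of 1.18. At low glucose they ran from -0.54 for SLC16A11 to 2.30 for the first region of SLC16A7, with a median of 0.61. The 6 regions of the SLC35 subfamily, which includes the nucleotide sugar carriers, ran from 0.22 to 1.64 at high glucose and from 0.05 to 1.88 at low glucose.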
